A study of Mus musculus with 2 samples.

Results

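The 30 genes described here encode enzymes of cholesterol synthesis, enzymes of fatty acid synthesis and modification, and the regulators of both pathways. They were listed by their function, and all 30 were found among the 19320 features of a single-cell RNA-seq table of mouse prostate cells. The mice carried R26 mTmG/hAR and Osr1 Cre/+ alleles on a mixed C57BL/6 and 129S1/SvImJ background. The Cre recombinase, driven from the Osr1 locus, switches on a human androgen receptor transgene (hARtg) and membrane-bound green fluorescent protein (mGFP) in cells of the Osr1 lineage. The transgene and the reporter sit on separate alleles that the same Cre recombines. The labels list 1 sample with prostatic intraepithelial neoplasia (PIN) and 1 with prostatic adenocarcinoma (PCa), the PIN tissue coming from younger mice, and no control without the transgene was analysed here. Tissue was digested in solutions that held dihydrotestosterone and Y-27632, a kinase inhibitor. The cells were then resuspended in buffered saline with albumin before droplet capture.

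Cell barcodes in the table carried 1 of 2 endings, called set 1 and set 2 below. Nothing in the labels or the barcodes ties an ending to the PIN or the PCa sample, so no cell was assigned to either tissue and every value is given per set. Set 1 held 6332 cells with a median of 17235 unique molecular identifiers (UMIs, each standing for 1 captured transcript) and set 2 held 9410 cells with a median of 14824.5 UMIs. With 1 library per group there was no replicate, no p-value was computed, and each difference compares 2 groups of cells from these libraries.

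Cholesterol is built from acetyl-CoA through mevalonate to squalene and then through a series of sterol intermediates. When membrane sterol is low, SCAP carries SREBP proteins (encoded by Srebf1 and Srebf2) from the endoplasmic reticulum to the Golgi, where they are cut and freed to switch on the genes of the pathway, and INSIG1 holds that complex back when sterol is plentiful. SREBP-2 acts mainly on cholesterol genes and SREBP-1 mainly on fatty acid genes, and lipid synthesis in prostate luminal cells is known to be under androgen control.

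The members fall into 4 groups by role. The mevalonate group holds Acat2, Hmgcs1, Mvk, Pmvk, Mvd, Idi1 and Fdps, which carry acetyl-CoA to farnesyl diphosphate. The sterol group holds Fdft1 and Sqle, which make and oxidise squalene, Lss, which closes it into lanosterol, and Cyp51, Msmo1, Nsdhl, Hsd17b7, Ebp, Sc5d and Dhcr7, which trim lanosterol to cholesterol. The fatty acid group holds Acaca and Fasn, which make palmitate, Elovl5 and Elovl6, which lengthen fatty acids, and Scd1, Scd2, Fads1 and Fads2, which put in double bonds. The last group holds Srebf1, Srebf2, Scap, Insig1 and Stard4, the last of which carries cholesterol between membranes.

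Reference promoters from RefSeq (GRCm38.p6, the same build as mm10) were found for 23 of the 30 members, and the 250 bases before the transcription start are printed for 5 members picked, after their values were seen, from those at least 2-fold apart between the sets in luminal-like cells. Others of those, such as Insig1 and Cyp51, are not shown. Capitals mark TCACNCCAC, a pattern found in sterol regulatory elements, and CCAAT or its reverse complement ATTGG, the motif of NF-Y, a known partner of SREBP. The stretches are chr13:119690101-119690350 (plus strand) for Hmgcs1, chr13:8885356-8885605 (plus strand) for Idi1, chr8:64733579-64733828 (minus strand) for Msmo1, chrX:72918271-72918520 (plus strand) for Nsdhl and chr3:129532136-129532385 (plus strand) for Elovl6, each written 5′ to 3′ in the direction of transcription.
Hmgcs1: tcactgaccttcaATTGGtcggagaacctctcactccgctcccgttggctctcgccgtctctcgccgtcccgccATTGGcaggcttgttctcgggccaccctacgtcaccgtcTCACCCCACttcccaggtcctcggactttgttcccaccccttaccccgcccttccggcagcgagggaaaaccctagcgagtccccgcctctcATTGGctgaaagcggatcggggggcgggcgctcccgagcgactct
Idi1: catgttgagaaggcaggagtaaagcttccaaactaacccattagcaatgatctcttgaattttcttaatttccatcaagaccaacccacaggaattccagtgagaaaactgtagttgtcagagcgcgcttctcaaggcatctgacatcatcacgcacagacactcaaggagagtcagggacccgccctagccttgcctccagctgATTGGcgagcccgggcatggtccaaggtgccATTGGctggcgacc
Msmo1: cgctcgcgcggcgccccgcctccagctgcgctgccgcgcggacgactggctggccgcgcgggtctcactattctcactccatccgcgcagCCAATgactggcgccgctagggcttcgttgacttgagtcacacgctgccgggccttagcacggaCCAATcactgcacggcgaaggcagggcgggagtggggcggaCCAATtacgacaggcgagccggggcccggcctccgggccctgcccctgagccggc
Nsdhl: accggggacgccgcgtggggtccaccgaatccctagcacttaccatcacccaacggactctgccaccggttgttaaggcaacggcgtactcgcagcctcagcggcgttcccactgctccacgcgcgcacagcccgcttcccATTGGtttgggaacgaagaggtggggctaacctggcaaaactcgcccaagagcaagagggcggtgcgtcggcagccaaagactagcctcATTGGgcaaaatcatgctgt
Elovl6: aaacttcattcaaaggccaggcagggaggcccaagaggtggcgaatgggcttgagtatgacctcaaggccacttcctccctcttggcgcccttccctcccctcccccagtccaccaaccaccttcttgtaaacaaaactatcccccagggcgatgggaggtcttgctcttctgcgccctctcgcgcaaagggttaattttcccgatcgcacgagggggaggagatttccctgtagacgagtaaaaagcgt

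CCAAT was searched on both strands, which makes ATTGG the same motif. It occurred in the window of 13 of the 14 mevalonate and sterol genes that had a promoter (92.9%), against 41.1% of the 27025 genes of the reference, where the window runs from 250 bases before to 50 bases after the start. Among fatty acid genes 2 of 5 held it, and Elovl6 did not. TCACNCCAC, searched on both strands, was found in the window of Hmgcs1 alone among the members, 137 to 129 bases before its start, and in 1.44% of all genes. The E-box CACGTG was present in 26.1% of the 23 members and 8.09% of all genes, and GGGCGG, searched on both strands, in 78.3% and 38.2%. Among the 13576 reference genes that were also features of these data, GGGCGG was present in 60.1% and CACGTG in 10.5%. In those genes CCAAT was present in 41.7% and TCACNCCAC in 1.5%. These are matches of letters in a window, without a test, and nothing was measured at these sites.

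Cells were clustered without the member genes among the clustering features and grouped into classes named from marker genes. The plot of levels by epithelial cluster or other class and by set holds all 30 members. Levels are CPM, in which the summed UMIs of a gene in a group of cells are divided by all UMIs of that group and brought to the usual fixed scale. Since a 3' library reads the end of each transcript, values compare groups of cells for the same gene and not 1 gene with another. Luminal-like cells numbered 2394 in set 1 and 7805 in set 2, and basal-like cells 1694 and 360. The 8 luminal markers summed to 31545 CPM in set 1 and 18365 CPM in set 2 of the luminal-like class, and the 7 basal markers to 13927 and 10032 CPM in the basal-like class. Of the 7 luminal-like clusters, 5 had none of the luminal markers among their 10 leading genes. One of them, cluster 3 (led by Krt6a and Clu), held 1173 of the 2394 luminal-like cells of set 1, and a cluster with the same leading genes was named proximal or urethral luminal-like when all cells were clustered and when the sets were not integrated. Counts for comparisons of the whole luminal-like class are therefore also given without cluster 3. They are given too for clusters 5 and 7 alone, which had luminal markers among their leading genes. Luminal-like sums, single-cell values and highest-class counts include cluster 3. Median UMIs per cell in these classes were 28668.5 and 16654 (luminal-like) and 10845.5 and 5493 (basal-like).

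**Figure D1:**
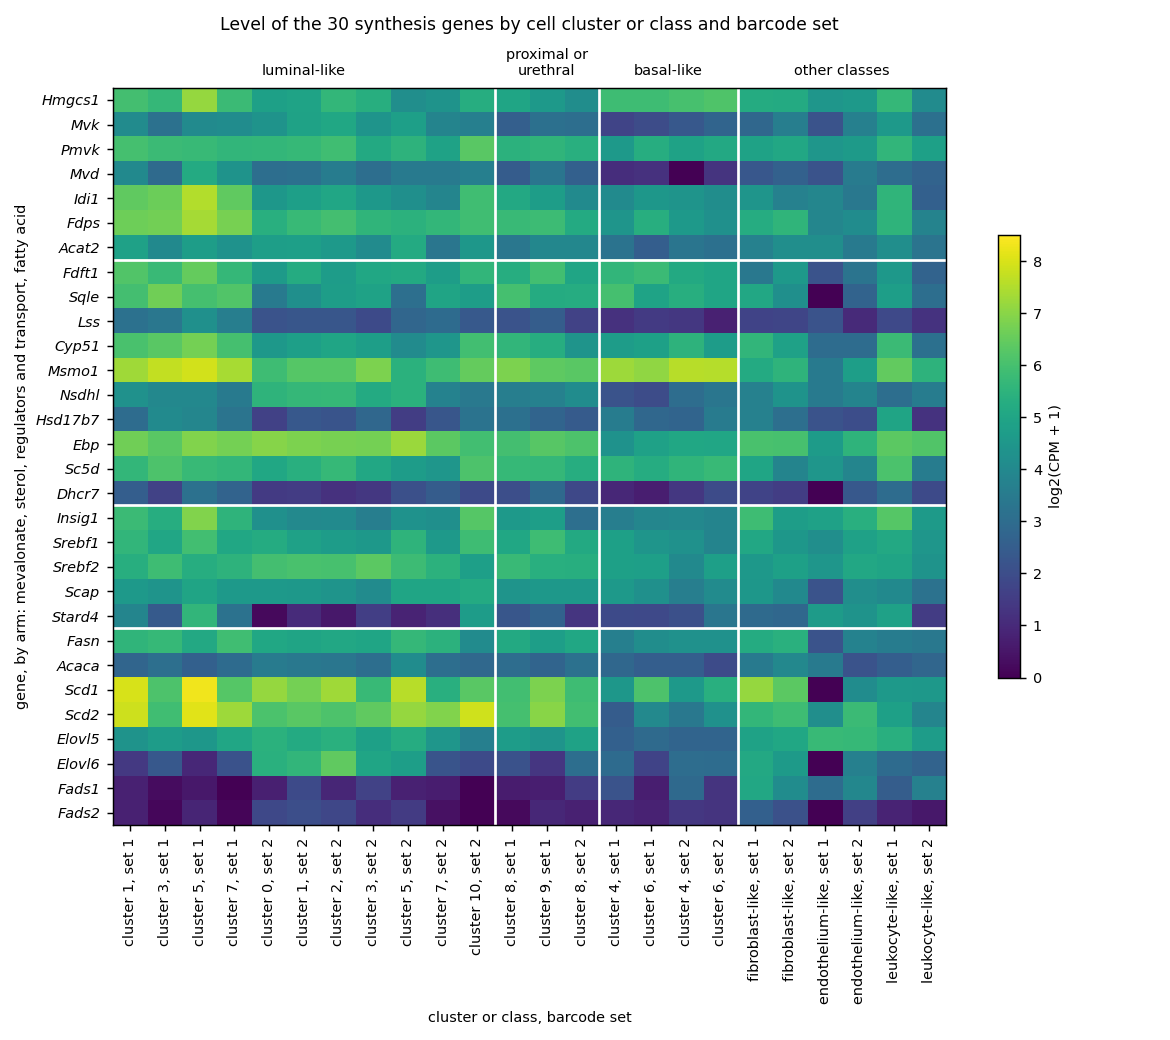
Level of each of the 30 members (rows, grouped by role), with colour giving the level on a log scale of CPM. Columns are epithelial clusters and, outside the epithelium, cell classes, each by barcode set. With clusters pooled into classes, which are not drawn, the luminal-like class was the highest for 18 members in set 1 and for 13 in set 2.

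Cholesterol genes were read at high levels in luminal-like cells of set 1. Summed over the 17 mevalonate and sterol genes, luminal-like cells held 1016 CPM in set 1 and 559 CPM in set 2. Basal-like cells held 494 and 543 CPM, proximal or urethral luminal-like cells 570 and 445 CPM, fibroblast-like cells 397 and 384 CPM, and leukocyte-like cells 623 and 248 CPM. In set 1 the luminal-like sum was therefore the highest, and in set 2 the luminal-like and basal-like sums lay close together.

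The fatty acid group had another pattern over the classes. In luminal-like cells its 8 genes summed to 374 CPM (set 1) and 343 CPM (set 2), and to 337 and 271 CPM in fibroblast-like cells. The luminal-like sum of set 1 pooled unlike clusters, with 217 CPM in cluster 3 and 328 CPM in cluster 7. Clusters 1 and 5 of set 1 stood at 558 and 655 CPM. Without cluster 3 the luminal-like sum of set 1 would thus be higher. The sums were 83.9 and 87.4 CPM in basal-like cells and 119 and 94.6 CPM in leukocyte-like cells. Among these classes the fatty acid sum was thus lowest in basal-like and leukocyte-like cells of both sets, and highest in luminal-like and fibroblast-like cells. Endothelium-like cells, of which set 1 held only 40, are outside this ranking, and their sums were 90.7 (set 1) and 167 CPM (set 2). The ranking is of sums and did not hold for each gene. Elovl5 was highest in leukocyte-like cells in set 1 and in endothelium-like cells in set 2.

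The median luminal-like cell of set 1 held 769 CPM of mevalonate and sterol transcripts, and 80% of its cells lay between 379 and 1913 CPM. The median cell of set 2 held 471 CPM, with the same share between 212 and 972 CPM. The ranges over single cells overlapped widely, and sampling of few UMIs per cell adds to their width.

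Single members departed from these sums. Fads1, the delta-5 desaturase, was read at 33.0 CPM in set 1 and 16.7 CPM in set 2 in fibroblast-like cells, against 0.302 and 1.36 CPM in luminal-like cells. Elovl6, which lengthens palmitate to stearate, was at 34.1 and 23.9 CPM in fibroblast-like cells, against 2.97 and 48.3 CPM in luminal-like cells. In set 2 the basal-like class was the highest for 6 members, Hmgcs1, Fdft1, Cyp51, Msmo1, Hsd17b7 and Sc5d, all of the mevalonate or sterol group, and in set 1 for 0. In set 1 leukocyte-like cells were the highest for 7 members, and in set 2 for 0.

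Luminal-like and basal-like cells were then set against each other within each set. A gene was counted as higher or lower when its level differed at least 2-fold, its 95% interval for counting error did not reach a log2 ratio of 0, and its mean level over both sides was at least 10 CPM. In set 1, 20 members passed the level filter, 10 were higher in luminal-like cells and 0 lower, where 21.3% of all 7107 features tested were higher and 9.86% lower. In set 2, 22 members passed, 11 were higher and 3 lower, against 23.8% and 18.9% of 7038 features. The median log2 ratio of the members was 1.21 in set 1 and 0.92 in set 2, and that of all features 0.10 and 0.052. Without cluster 3, 12 members were higher and 0 lower in set 1 and 11 and 3 in set 2 (24.3%, 14.9%, 23.9% and 19.0% of features), and with clusters 5 and 7 alone 12 and 0 in set 1 and 13 and 4 in set 2 (25.2%, 15.5%, 26.6% and 17.8%). The marker lists that name the classes hold no member.

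The 6 members higher in luminal-like cells of both sets were Fdps, Acat2, Ebp, Scd1, Scd2 and Elovl5, a rule met by 14.1% of the 6514 features tested in both. Scd2, a stearoyl-CoA desaturase, stood at 144 CPM in luminal-like and 8.85 CPM in basal-like cells of set 1 and at 79.1 and 14.6 CPM in set 2, log2 ratios of 4.03 (95% interval 3.82 to 4.24) and 2.43 (1.98 to 2.93). Elovl5, an elongase of polyunsaturated fatty acids, stood at 24.7 and 5.78 CPM in set 1 and at 38.3 and 5.63 CPM in set 2, a log2 ratio of 2.09 (1.83 to 2.36) and 2.77 (2.05 to 3.61). Ebp, the sterol isomerase, stood at 94.5 and 23.0 CPM in set 1 and at 116 and 31.9 CPM in set 2. Both basal-like levels of each of these genes lay below both luminal-like levels.

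Scd1, the other main stearoyl-CoA desaturase, was at 147 CPM in luminal-like and 41.7 CPM in basal-like cells of set 1, and at 130 and 32.3 CPM in set 2, log2 ratios of 1.81 (1.72 to 1.91) and 2.01 (1.70 to 2.33). Fdps, which makes farnesyl diphosphate, was at 114 and 28.3 CPM in set 1 and at 48.6 and 20.6 CPM in set 2. Acat2, which joins acetyl-CoA units at the entry to the pathway, had log2 ratios of 1.54 and 1.61.

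For 5 members the direction turned between the sets, with both intervals clear of 0. Msmo1, which removes methyl groups from lanosterol derivatives, was at 200 CPM in luminal-like and 145 CPM in basal-like cells of set 1, but at 66.9 and 188 CPM in set 2. Hmgcs1, which makes the precursor of mevalonate, was at 70.6 and 57.5 CPM in set 1 and at 31.6 and 67.9 CPM in set 2. Cyp51, Sqle and Sc5d turned in the same way, from log2 ratios of 1.62, 0.73 and 0.49 in set 1 to -0.43, -1.04 and -0.38 in set 2. Fdft1, with log2 ratios of 0.32 and -0.17, was near 0 in both. Such a turn was found in 10.6% of the features tested in both sets. The basal-like levels of Msmo1 and Hmgcs1 differed little between the sets, and their luminal-like levels in set 2 were below those of set 1.

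Among 31 other genes of these pathways, also listed by function, 20 passed in each set. Of these, 6 were higher and 3 lower in luminal-like cells of set 1, against 21.3% and 9.86% of features. In set 2, 3 were higher and 5 lower, against 23.8% and 18.9%. Apoe, a carrier of cholesterol between cells, was at 248.7 CPM in luminal-like and 9360 CPM in basal-like cells of set 1, and at 583 and 6521 CPM in set 2. Acly, which supplies cytosolic acetyl-CoA, was at 49.4 and 17.5 CPM in set 1 and at 99.7 and 37.1 CPM in set 2. Tecr, an enzyme of fatty acid elongation, was higher in luminal-like cells of both sets, with log2 ratios of 1.05 and 1.14.

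The sets were next compared within each class. In luminal-like cells, 23 members passed the filter, 3 were higher and 8 lower in set 2 than in set 1, against 9.12% and 16.1% of 7288 features. The members' median log2 ratio of set 2 over set 1 was -0.53, and that of all features -0.17. Without cluster 3, 2 were higher and 11 lower (8.55% and 13.7% of features), and in clusters 5 and 7 alone 1 was higher and 12 lower (5.45% and 7.5%). Of the 8 lower members, 7 were mevalonate or sterol genes and the other was Insig1. Sets differ in library, cell make-up and tissue at once, and these cannot be told apart.

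Sqle, which oxidises squalene, was at 81.6 CPM in set 1 and 16.8 CPM in set 2 of the luminal-like class, a log2 ratio of -2.28 (-2.35 to -2.22). Idi1, the isomerase that readies the isoprene unit, was at 109 and 24.97 CPM, a log2 ratio of -2.13 (-2.19 to -2.08). Insig1 was at 57.5 and 17.2 CPM, a log2 ratio of -1.75 (-1.81 to -1.68). These members all had set 1 levels above 3 times those of set 2.

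Cyp51, the lanosterol demethylase, was at 79.6 CPM in set 1 and 25.1 CPM in set 2, Msmo1 at 200 and 66.9 CPM, Fdps at 114 and 48.6 CPM, Hmgcs1 at 70.6 and 31.6 CPM and Fdft1, squalene synthase, at 62.8 and 29.0 CPM. Their log2 ratios were -1.66, -1.58, -1.23, -1.16 and -1.11. Stard4 was at 14.9 and 0.838 CPM, a log2 ratio of -4.16 (-4.42 to -3.90), with a mean level under the filter. The other members under the filter in this comparison were Lss (11.2 and 3.93 CPM), Hsd17b7 (12.9 and 3.20 CPM), Dhcr7 (4.32 and 1.89 CPM), Acaca (6.70 and 10.1 CPM), Fads1 (0.302 and 1.36 CPM) and Fads2 (0.342 and 2.52 CPM).

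The 3 higher members were of several roles. Elovl6 was at 2.97 CPM in set 1 and 48.3 CPM in set 2, a log2 ratio of 4.02 (3.83 to 4.22). Nsdhl, a sterol dehydrogenase, was at 14.5 and 45.6 CPM, a log2 ratio of 1.66 (1.57 to 1.75), and Mvk, mevalonate kinase, at 12.2 and 24.97 CPM, a log2 ratio of 1.04 (0.93 to 1.14). The sterol group therefore held genes on both sides of 0, and Ebp, with a log2 ratio of 0.29, moved little. Scap differed little between the sets, at 23.0 CPM in both, and Srebf2 was at 48.5 and 62.7 CPM, Srebf1 at 39.8 and 31.7 CPM.

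**Figure D2:**
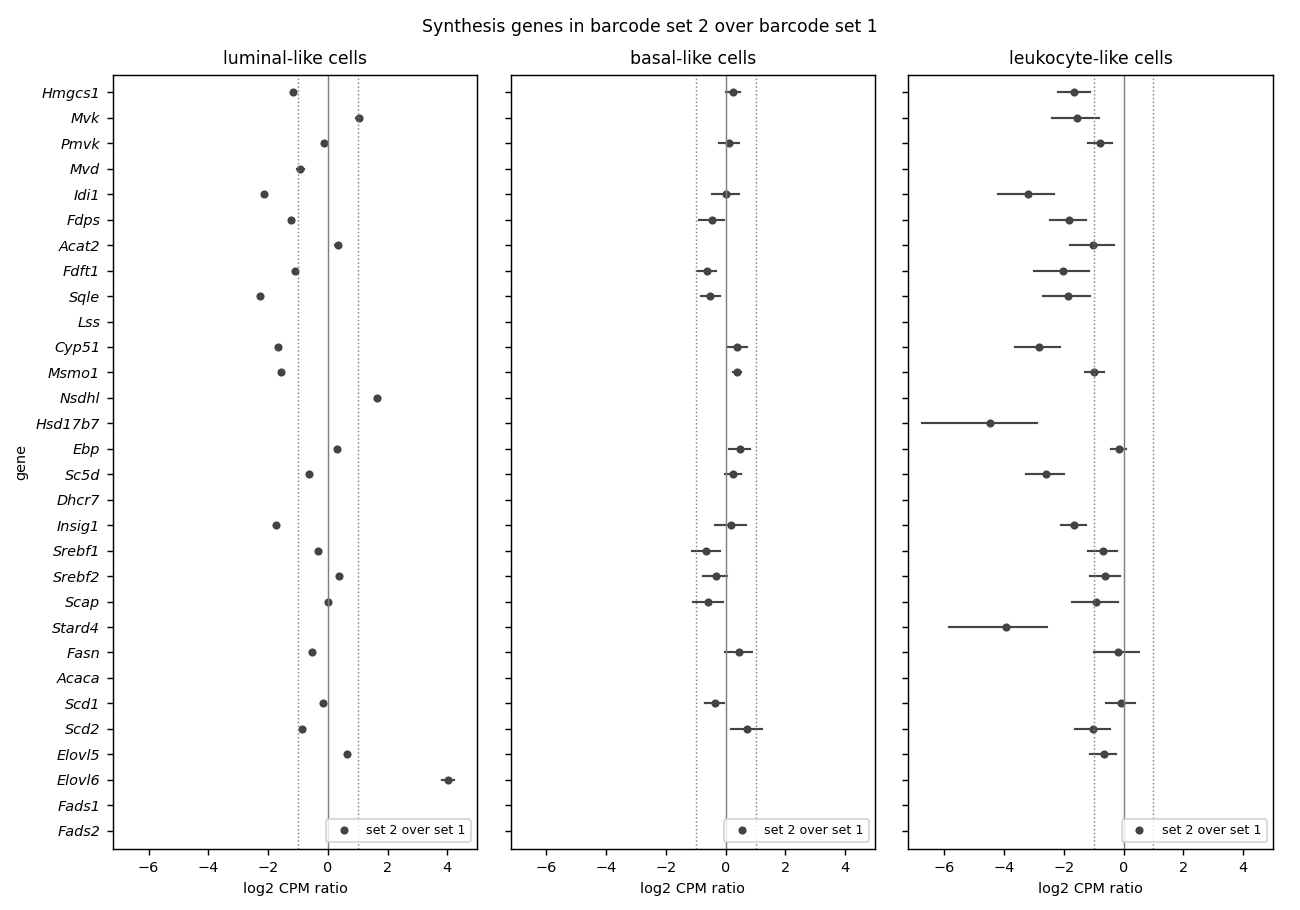
Log2 ratio of set 2 over set 1 in luminal-like, basal-like and leukocyte-like cells, with 95% intervals for counting error and a line at 0. Only members that passed the level filter in a comparison are drawn. Idi1, Sqle, Insig1, Cyp51, Msmo1, Fdps, Hmgcs1 and Fdft1 lie more than 1 below 0 in luminal-like cells, while all basal-like members that passed the filter lie within 1 of 0.

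In basal-like cells 17 members passed, 0 were higher and 0 lower in set 2, against 3.05% and 4.56% of 6597 features. Among genes that were lower in luminal-like cells, the log2 ratio there was 0.007 for Idi1, 0.17 for Insig1, 0.38 for Msmo1 and -0.52 for Sqle. Of the 17 basal-like members, 6 had intervals below 0 and 5 above, and the ratios ran from -0.65 to 0.73. Fdft1 was below 0 within each of the 6 clusters compared between sets (-1.37 to -0.45), basal-like clusters 4 and 6 among them. In the proximal or urethral luminal-like class 20 passed, 0 were higher and 2 lower (4.26% and 3.73% of features), namely Insig1 (-1.19) and Cyp51 (-1.08). In fibroblast-like cells 23 passed, 1 was higher and 2 lower (5.96% and 5.95% of features).

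Leukocyte-like cells had a lower level of many members in set 2. There 22 passed, 0 were higher and 13 lower, against 11.9% and 27.9% of 7660 features, and the median log2 ratio was -1.29 for the members and -0.50 for all features. Hsd17b7, a sterol reductase, was at 30.4 CPM in set 1 and 1.37 CPM in set 2, Stard4 at 28.2 and 1.83 CPM and Idi1 at 46.2 and 5.03 CPM. The make-up of this class differed as well, with the macrophage genes C1qa (261 and 5321 CPM) and Lyz2 (549 and 4935 CPM) higher in set 2 and the lymphocyte genes Cd3e (426 and 15.1 CPM) and Nkg7 (613 and 15.1 CPM) higher in set 1. The part of this make-up in the difference was not tested.

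Luminal-like cells also differed between the sets in which clusters they came from. Set 1 drew them from cluster 3 (led by Krt6a and Clu, 1173 cells), cluster 7 (9530053A07Rik, Ren1 and Tgm4, 495 cells), cluster 5 (Msmb, Wfdc3 and Pbsn, 407 cells) and cluster 1 (Svs5, Svs4 and Pate4, 307 cells). Set 2 drew them from cluster 0 (Gulo, Npl and Mt3, 3418 cells), cluster 1 (1993 cells) and cluster 2 (Defa22 and Defa21, 1430 cells), with 403, 269 and 217 cells in clusters 5, 7 and 3. Other programs moved with the set as well. In luminal-like cells Pbsn, an androgen-driven secretory gene, was at 3740 CPM in set 1 and 335 CPM in set 2, and the 3 MHC class II group genes Cd74, H2-Aa and H2-Eb1 summed to 4558 and 6.82 CPM. The other 14 leukocyte markers summed to 4.74 and 9.82 CPM in the same cells, so leukocyte-defining genes were near 0 in both. The part of these in the member differences was not tested.

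Within each luminal-like cluster that held at least 50 cells of both sets, members were again lower in set 2. In cluster 1, 23 members passed, 2 were higher and 8 lower in set 2 (8.76% and 12.6% of features), in cluster 3, 3 were higher and 7 lower (9.09% and 12.4%), in cluster 5, 3 were higher and 12 lower (10.5% and 11.0%) and in cluster 7, 0 were higher and 9 lower (2.47% and 6.23%). Idi1 in set 1 and set 2 was at 84.3 and 26.8 CPM in cluster 1, at 94.98 and 21.9 CPM in cluster 3, at 184 and 18.0 CPM in cluster 5 and at 85.3 and 13.5 CPM in cluster 7. Among luminal-like cells with 5 or more UMIs of the transgene, 2 members were higher and 11 lower in set 2 (9.07% and 13.6%), and among those with 0, 0 were higher and 9 lower (5.92% and 10.7%). Idi1 in the latter was at 111 and 12.7 CPM. The 11 lower members with 5 or more UMIs were 8 mevalonate or sterol genes, Insig1, Scd1 and Scd2. In those cells Scd1 was at 287 CPM in set 1 and 132 CPM in set 2, a log2 ratio of -1.12. Scd2 was at 259 and 77.7 CPM, a log2 ratio of -1.74. In basal-like cluster 4, 0 members were higher and 0 lower (3.89% and 5.18%), and in basal-like cluster 6, 0 were higher and 1 lower (3.63% and 5.77%).

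Elovl6 differed between the sets in some of these clusters and not in others. It was at 1.64 and 47.0 CPM in set 1 and set 2 in cluster 1, at 4.11 and 30.6 CPM in cluster 3 and at 0.918 and 26.1 CPM in cluster 5, but at 3.38 and 3.64 CPM in cluster 7. The log2 ratios were 4.84, 2.90, 4.83 and 0.11. Its highest level was 85.2 CPM in cluster 2, a cluster with 0 cells of set 1. Cluster 7 also had the lowest transgene levels of the luminal-like clusters of set 2, 267 CPM against 773 to 1678 CPM in the others. The part of the transgene level in the Elovl6 levels was not tested.

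**Figure D3:**
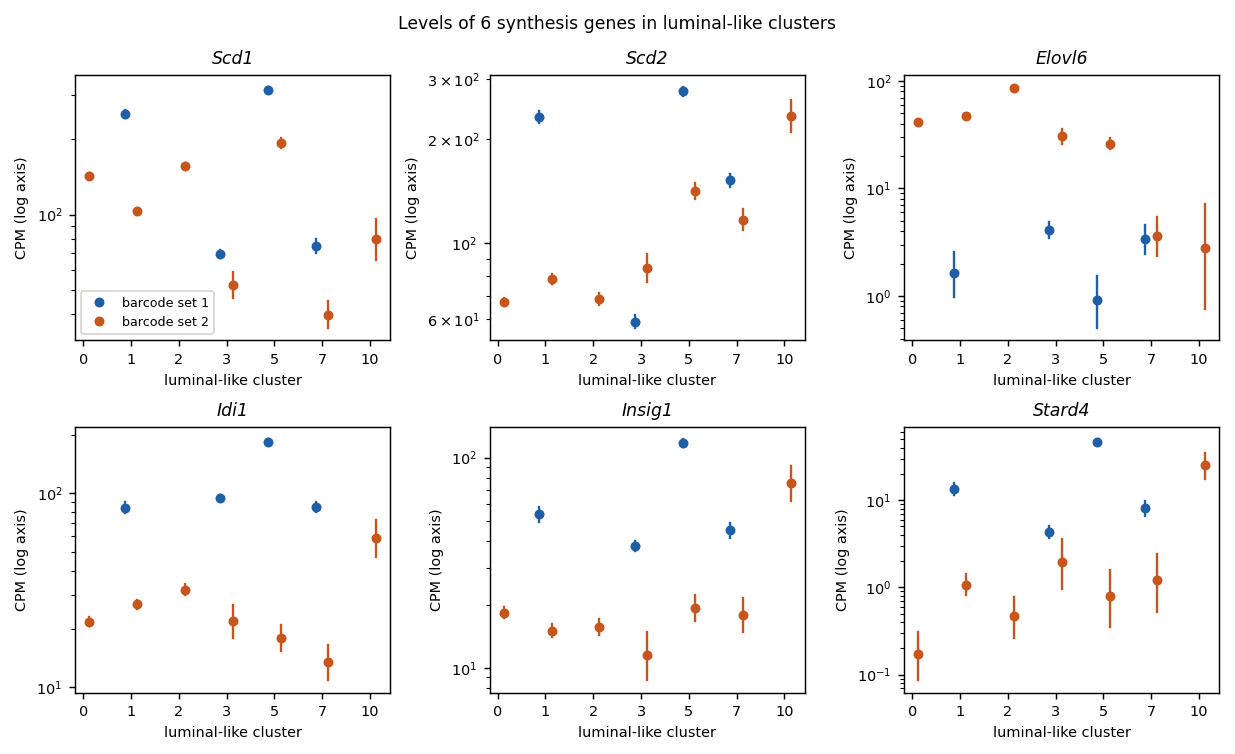
Level in CPM (log axis) of selected members in each luminal-like cluster and barcode set with at least 50 cells, with 95% Poisson intervals. Cluster 5 of set 1 is the highest for Idi1 (184 CPM) and Scd1 (315 CPM), and cluster 2 of set 2 for Elovl6 (85.2 CPM).

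Over the 18 epithelial cluster and set groups with at least 50 cells, cluster 5 of set 1 was the highest for 14 members. There Idi1 was at 184 CPM, Fdps at 162 CPM, Insig1 at 117 CPM and Stard4 at 46.9 CPM, against medians over the 18 groups of 23.9, 50.2, 18.1 and 3.01 CPM. Scd1 at 315 CPM and Scd2 at 277 CPM, against medians of 72.4 and 73.6 CPM, were also highest there. In set 2 the same cluster was the lowest of the 18 groups for Sqle (7.64 CPM), Cyp51 (16.3 CPM), Msmo1 (42.1 CPM) and Hsd17b7 (1.91 CPM). Its mevalonate and sterol sum was 1337 CPM in set 1 and 521 CPM in set 2.

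Levels of the members were also correlated over these groups. The median Pearson correlation of log levels between pairs of mevalonate and sterol genes was 0.476, and 0.398 after the mean of each set was taken out. Among fatty acid genes it was 0.345 and 0.34, and between the 2 arms -0.01 and 0.032. Within both arms some pairs had negative correlations, and no median over pairs of other features is given beside these. Against the mean of the other mevalonate and sterol genes, Fdps (0.924), Idi1 (0.915), Lss and Insig1 (both 0.847), Mvd, the decarboxylase of the pathway (0.77), Cyp51 (0.759) and Scd2 (0.758) had the closest pattern. Within the group, Nsdhl (0.175), Msmo1 (0.239), Sqle (0.286) and Hmgcs1 (0.309) followed that mean less closely. With the set means taken out, Nsdhl rose to 0.544, while Msmo1, Sqle and Hmgcs1 fell to 0.057, 0.086 and 0.189. Fads1 (-0.554), Fads2 (-0.271) and Elovl6 (-0.259) ran against the mean of the group, and with the set means taken out these became -0.488, -0.098 and 0.001. The 18 groups share 2 libraries and are not independent, and the correlations are descriptions without a test.

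The next question was whether cells that carried the transgene differed from cells of the same class that did not. The feature ARQ was taken as hARtg by its name. Luminal-like cells with 5 or more ARQ UMIs were set against luminal-like cells with 0, and basal-like cells with 1 or more against 0. In set 1 and set 2, ARQ stood at 165 and 1515 CPM in luminal-like cells, at 335 and 603 CPM in basal-like cells, and at 14.7 and 168 CPM in leukocyte-like cells, a class outside the epithelium. How much of these levels came from free RNA was not tested. Cells with 0 ARQ UMIs still held EGFP, the mGFP reporter by name, at 130 CPM in luminal-like and 88.3 CPM in basal-like cells of set 1 and at 2572 and 2285 CPM in set 2, so the side without ARQ carried reporter transcripts above all in set 2. The part of this in the comparisons was not tested. Sides were 430 and 1370 luminal-like cells in set 1 and 7105 and 158 in set 2, and 808 and 886 basal-like cells in set 1 and 251 and 109 in set 2.

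Scd1 was the member that differed in every such comparison. In luminal-like cells it was at 287 CPM with and 97.2 CPM without the transgene in set 1, a log2 ratio of 1.56 (1.502 to 1.625), and at 132 and 55.1 CPM in set 2, a log2 ratio of 1.26 (1.02 to 1.52). In basal-like cells it was at 55.8 and 23.3 CPM in set 1, a log2 ratio of 1.26 (1.04 to 1.48), and at 36.5 and 18.0 CPM in set 2, a log2 ratio of 1.02 (0.096 to 2.08). Of 5318 features tested in all 4 comparisons, 12 (0.226%) were higher in all 4, ARQ and EGFP included.

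**Figure D4:**
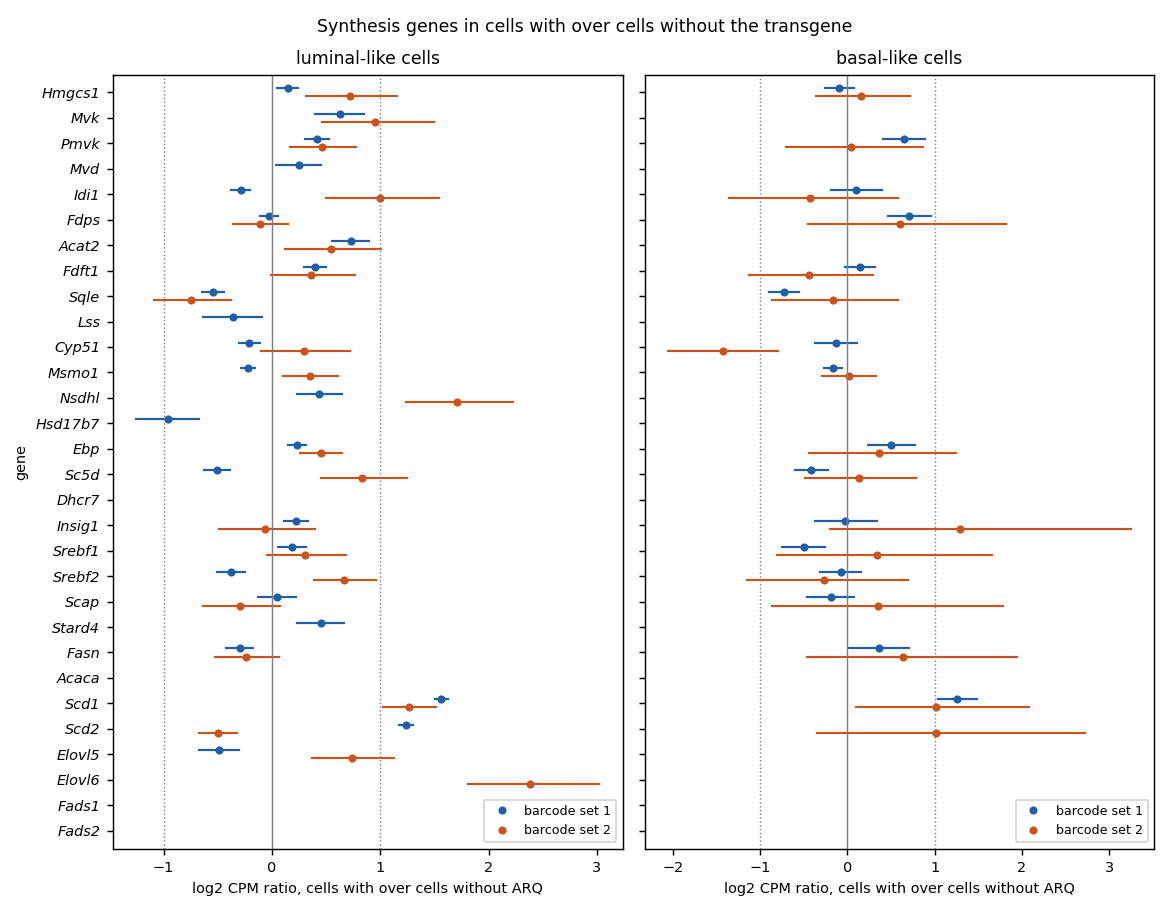
Log2 ratio of cells with over cells without the transgene for each member that passed the level filter, with 95% intervals for counting error. Panels are luminal-like and basal-like cells, with both sets in each. Scd1 lies between 1.02 and 1.56 in the 4 comparisons, and most other members lie within 1 of 0.

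Scd1 also followed the number of transgene UMIs. With 0, 1 to 4, and 5 or more ARQ UMIs it was at 97.2, 129 and 287 CPM in set 1 and at 55.1, 86.3 and 132 CPM in set 2 of the luminal-like class. In basal-like cells it was at 23.3, 37.7 and 63.9 CPM in set 1 and at 18.0, 20.2 and 46.8 CPM in set 2. The level was lowest at 0 UMIs and highest at 5 or more in all 4. Depth differed between the steps. With 0, 1 to 4, and 5 or more ARQ UMIs the median luminal-like cell held 26572, 31374 and 35949 UMIs in set 1. In set 2 it held 15802, 8652 and 17478 UMIs, the middle step being the shallowest. In basal-like cells it held 9468, 10357 and 14235 UMIs in set 1 and 4220, 5161.5 and 7327 in set 2. The part of depth in the difference was not tested.

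The sides of the split came from different clusters, and the Scd1 difference was smaller within them. In set 1, 56.9% of luminal-like cells without the transgene lay in cluster 3 and 28.4% in cluster 7, while 50.7% of those with it lay in cluster 1 and 31.4% in cluster 5. In set 2, 64.6% of cells without it lay in cluster 7, and 45.6%, 25.9% and 19.0% of those with it in clusters 0, 1 and 2. Within cluster 3 of set 1, Scd1 was at 81.8 CPM with and 67.2 CPM without the transgene, a log2 ratio of 0.29 (0.047 to 0.52). Within cluster 5 of set 1 it was at 397 and 271 CPM, a log2 ratio of 0.55 (0.45 to 0.65), and within cluster 7 of set 2 at 63.9 and 33.6 CPM, a log2 ratio of 0.93 (0.50 to 1.37). These differences were in the same direction and below 2-fold. Over all members, 0 were higher and 0 lower within cluster 3 of set 1 (0.969% and 0.225% of features) and within cluster 5 (3.61% and 1.72%), and within cluster 7 of set 2 Nsdhl alone was higher and 0 were lower (4.03% and 0.78%). In the whole classes, the log2 ratio of Scd1 was 0.50 in luminal-like cells of set 2 when cells were split after thinning and 0.27 in basal-like cells of set 2 when every cell weighed the same. It was 0.48 in luminal-like cells of set 1 when cells were clustered without integration.

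In basal-like cells only cluster 4 could be split, and there neither set had a Scd1 interval clear of 0. Within cluster 4 of set 1 Scd1 was at 17.6 CPM with and 23.3 CPM without the transgene, a log2 ratio of -0.41 (-0.84 to 0.007), and within cluster 4 of set 2 at 28.2 and 16.2 CPM, a log2 ratio of 0.80 (-0.44 to 2.18). Over all members, 0 were higher and 0 lower within cluster 4 of set 1 (0.23% and 0.0766% of features), and 0 were higher and Cyp51 alone lower in set 2 (2.85% and 1.51%). Basal-like cluster 6 (led by Ltbp4, Htra1 and Krt15) had a higher Scd1 level than cluster 4 in both sets, 69.6 against 21.8 CPM in set 1 and 39.9 against 23.4 CPM in set 2. Cluster 6 also held more transgene, 722 against 58.3 CPM in set 1 and 841 against 327 CPM in set 2.

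Of the other members few differed 2-fold with the transgene in luminal-like cells. In set 1, 25 members passed, 2 were higher and 0 lower, against 4.04% and 4.3% of 7209 features, and in set 2, 22 passed, 3 were higher and 0 lower, against 9.6% and 12.4% of 7087 features. The median log2 ratio was 0.15 and 0.46 for the members and -0.19 and -0.091 for all features. Without cluster 3, Scd1 alone was higher in set 1 and 0 were lower (4.21% and 3.92% of features), and 3 were higher and 0 lower in set 2 (9.66% and 12.9%). In clusters 5 and 7 alone, 1 was higher and 0 lower in set 1 (4.39% and 5.35%), and 7 were higher and 1 lower in set 2 (10.4% and 11.0%), with Scd1 log2 ratios of 1.40 and 1.90. Scd2 was at 259 CPM with and 110 CPM without the transgene in set 1, a log2 ratio of 1.24 (1.176 to 1.299), but at 77.7 and 110 CPM in set 2, a log2 ratio of -0.50 (-0.67 to -0.32). The 2 desaturases, whose genes lie near each other on chromosome 19 (Scd2 at 44293676 to 44306864 and Scd1 at 44394450 to 44407709 in GRCm38.p6), therefore differed in direction in set 2. In clusters 5 and 7 alone the log2 ratio of Scd2 in set 2 was 0.27.

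Elovl6 and Nsdhl were higher with the transgene in set 2. Elovl6 was at 49.6 and 9.52 CPM, a log2 ratio of 2.38 (1.81 to 3.02), and Nsdhl at 46.8 and 14.3 CPM, a log2 ratio of 1.71 (1.24 to 2.23). By ARQ count, Elovl6 in set 2 was at 9.52, 30.3 and 49.6 CPM with 0, 1 to 4, and 5 or more UMIs, and in set 1 at 3.14, 3.71 and 1.64 CPM. The level of Elovl6 in luminal-like cells of set 1 was thus low at every transgene count. When cells were instead split after each was thinned to 3000 UMIs, the log2 ratio of Elovl6 in set 2 was 0.79, and 0 members differed 2-fold.

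The members with the highest mean ratio over both sets after Scd1 and Nsdhl were Mvk (log2 ratios of 0.63 and 0.95), Acat2 (0.73 and 0.55) and Pmvk, phosphomevalonate kinase (0.42 and 0.46). The lowest were Sqle (-0.54 and -0.75), Fasn, fatty acid synthase (-0.29 and -0.24), Scap (0.051 and -0.29), Fdps (-0.026 and -0.11) and Cyp51 (-0.21 and 0.29). Sqle was at 60.7 CPM with and 88.3 CPM without the transgene in set 1 and at 16.3 and 27.4 CPM in set 2, lower with the transgene in both. None of these reached 2-fold. Pbsn moved the other way, with log2 ratios of -1.59 and -6.10 in set 1 and set 2.

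In basal-like cells, 16 members passed in set 1, 1 was higher and 0 lower, against 2.16% and 1.18% of 6517 features, and 17 passed in set 2, 1 was higher and 1 lower, against 2.55% and 2.97% of 6537 features. The median log2 ratio was -0.051 and 0.16 for the members and -0.053 and -0.015 for all features. Cyp51 was at 24.3 CPM with and 65.6 CPM without the transgene in set 2, a log2 ratio of -1.43 (-2.06 to -0.79), and at 24.8 and 27.2 CPM in set 1, where the interval included 0. Fdps was at 34.0 and 20.8 CPM in set 1 and at 22.4 and 14.8 CPM in set 2, log2 ratios of 0.71 and 0.60 of which the second had an interval that included 0. The other members named by the ranking were Insig1 (-0.023 and 1.29), Fasn (0.36 and 0.64) and Ebp (0.50 and 0.36) at the high end and Sqle (-0.73 and -0.17), Srebf2 (-0.078 and -0.27), Idi1 (0.099 and -0.43) and Fdft1 (0.14 and -0.44) at the low end.

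The mGFP reporter, read as EGFP, could be used in set 1. Cells with 5 or more EGFP UMIs were set against cells with 0 in set 1, 462 and 1155 luminal-like and 492 and 860 basal-like cells. In luminal-like cells 25 members passed, 2 were higher and 0 lower, against 3.18% and 2.1% of 7206 features. In basal-like cells 17 passed, 3 were higher and 0 lower, against 2.4% and 2.24% of 6512 features, namely Scd1 (1.24), Scd2 (1.66) and Fdps (1.04). In set 2 only 16 luminal-like and 22 basal-like cells had 0 EGFP UMIs, fewer than the 50 required, and the comparison was not made. The cells with the reporter and the cells with the transgene overlap, so the 2 splits are not independent.

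Among the other pathway genes, Npc2, which carries cholesterol out of the lysosome, was higher with the transgene in basal-like cells of both sets, at 447 and 110 CPM in set 1 and at 231 and 107 CPM in set 2, log2 ratios of 2.03 (1.93 to 2.12) and 1.11 (0.74 to 1.51). Of the other pathway genes that passed, 1 of 19 was higher in basal-like cells of set 1 (2.16% of features) and 3 of 20 in set 2 (2.55%). In luminal-like cells 0 of 21 were higher in set 1 (4.04%) and 2 of 18 in set 2 (9.6%). In all 4 comparisons 0 were lower. The shares of features lower in set 1 and set 2 were 1.18% and 2.97% in basal-like and 4.3% and 12.4% in luminal-like cells.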

How the data were processed

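Prostate cells of 1 PIN and 1 PCa sample were profiled with the 10x Chromium 3' v2 kit. The authors mapped and counted the reads to mm10 with the hARtg and mGFP sequences added (Cell Ranger 3.1.0, per the submitters' processing notes), filtered out empty droplets, multiplets and cells with much mitochondrial RNA, and used Seurat. The deposited table held values on a natural log scale, with the UMIs of each gene divided by those of its cell, multiplied by 10000 and increased by 1 before the log. They gave whole UMIs for 100% of values above 0 (tolerance 0.001), which were recovered and used in every step.

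Scrublet in scanpy 1.11.5 scored doublets in each set (expected rate 6%). The automatic limit called 0 cells, so a limit of 0.25, chosen after the scores were seen, was used, and 155 cells (2.45%) of set 1 and 175 (1.86%) of set 2 were left out, leaving 15412 cells. The sets shared 67 barcodes. The highest mitochondrial share was 9.99% and the lowest number of genes 1002. Clustering used Seurat 5.3.0 (R 4.3.3) on the integrated sets (2000 variable features, 30 principal components, 20 dimensions, resolution 0.5). The 63 members, other pathway genes, ARQ and EGFP were kept out of the clustering features. A cluster took a class name when 3 or more of the class markers appeared in 25% of its cells and its 10 leading genes did not go against it. Rebuilt classes may differ from those of the study.

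UMIs were summed per group and scaled to CPM in Python 3.11.15 (numpy 2.4.6, scipy 1.17.1), with exact Poisson 95% intervals, and log2 ratios carry conditional binomial 95% intervals. These cover counting error only. A floor of 3 UMIs replaced a sum of 0 in ratios. Both sides of a comparison held at least 50 cells. Figures were drawn with matplotlib 3.10.9, and the ratio and interval code was tested on simulated data. The members and lists were chosen with earlier results of these data known. Members were named when counted in both sets or among the 5 highest or 5 lowest mean ratios, and the members of the set comparison and of single classes were named after their values were seen. Alternatives were doublets kept, no integration, resolution 1.0, scaling without genes over 1% of UMIs, equal weight per cell, filters of 50 CPM and none, other ARQ or EGFP limits and splits after thinning to 3000 UMIs. Comparisons within clusters, among cells without ARQ, without cluster 3 and with clusters 5 and 7 alone were chosen after seeing the data. Some genes of the pathway list are not reported here.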

Additional observations from a re-analysis of the deposited data

Results flagged for a closer look

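For 6 members the luminal-like comparison of cells with against cells without the transgene had opposite directions in the 2 sets, each with a 95% interval clear of a log2 ratio of 0. Such opposite directions were found in 17.9% of the 6490 features tested in both sets. Idi1 had a log2 ratio of -0.289 in set 1 and 0.995 in set 2, Msmo1 of -0.219 and 0.355, and Sc5d, the lathosterol desaturase, of -0.509 and 0.836. Srebf2 had -0.376 and 0.668, and Elovl5 -0.487 and 0.735. Scd2 went the other way, with 1.237 in set 1 and -0.499 in set 2. These directions did not hold under every alternative. Idi1 in set 1 reached 0.058 (without integration), Msmo1 0.101 in set 1 and -0.192 in set 2 (clusters 5 and 7 alone), Srebf2 0.05 (within cluster 3) and Elovl5 0.008 (within cluster 5) in set 1, and Scd2 0.271 in set 2 (clusters 5 and 7 alone), while Sc5d kept both directions in the 13 and 12 alternatives run. As first computed, 5 members were lower with the transgene in set 1 and higher in set 2, and only Scd2 was higher in set 1. The cells without the transgene came mostly from cluster 3 in set 1 (56.9%) and from cluster 7 in set 2 (64.6%), and the part of this in the result was not tested. The difference between the sets was itself not tested, since each set held 1 library.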

How the results depend on the processing

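Counts of members at least 2-fold apart depended on the choices as follows, and the cause was not tested except where stated. With doublets kept, 5 members differed with the transgene in luminal-like cells of set 2, 1 in basal-like cells of set 2, and between the sets 6 in fibroblast-like cells and 0 in the proximal or urethral luminal-like class. Without integration, 0 differed with the transgene and 0 with the reporter in luminal-like cells of set 1, 1 with the reporter in basal-like cells of set 1, 1 with the transgene in basal-like cells of set 2 and 6 between the sets in proximal or urethral luminal-like cells. At resolution 1.0 the luminal-like counts were 1 (transgene, set 1), 0 (reporter, set 1) and 5 (transgene, set 2), 4 differed between the sets in proximal or urethral luminal-like cells, and 8 members were highest in luminal-like cells of set 2. With equal weight per cell, 1 differed with the reporter in luminal-like cells. Equal weight came without a counting interval, so its counts used the 2-fold rule and the level filter alone. With the transgene in basal-like cells of set 2, Scd1 (0.268) and Cyp51 (-0.864) were then both under 2-fold.

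The filter changes which genes are counted. At 50 CPM, 0 members differed with the transgene in basal-like cells of set 1, 0 in basal-like cells of set 2 and 1 in luminal-like cells of set 2, 0 with the reporter in basal-like cells, 6 (set 1) and 3 (set 2) between luminal-like and basal-like cells, and between the sets 5 in luminal-like cells, 7 in luminal-like cells with 5 or more ARQ UMIs, and 0 in fibroblast-like cells, leukocyte-like cells and the proximal or urethral luminal-like class. With no filter, 3 differed with the transgene and 5 with the reporter in basal-like cells of set 1, 18 between luminal-like and basal-like cells of set 1, 5 with the transgene in luminal-like cells of set 2, and between the sets 17 in luminal-like and 2 in basal-like cells. The filters give no value for the class or cluster in which a member is highest.

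With 1 or more ARQ UMIs, 1 member differed in luminal-like cells of set 1, and with 3 or more, 2 in basal-like cells of set 1. Splits after thinning gave 2 in basal-like cells of set 1 and 0 in luminal-like cells of set 2, where the Scd1 log2 ratio was 0.496. With 1 or more EGFP UMIs, 0 members met the rule in either class, although the log2 ratio of Scd2 in basal-like cells was 1.271 there, with a mean level under the filter. Without cluster 3, 1 differed with the transgene and 1 with the reporter in luminal-like cells of set 1, and in clusters 5 and 7 alone, both chosen after seeing the data, 1 and 1 in set 1 and 8 with the transgene in set 2. Within clusters 3 and 5 of set 1, 0 differed with the transgene, within cluster 4, 0 in set 1 and 1 in set 2, and within cluster 7 of set 2, 1. Between the sets 1 differed within basal-like cluster 6. Among 79 log2 ratios of at least 2-fold, the 4 that turned were Insig1 between the sets in proximal or urethral luminal-like cells (0.234 with doublets kept), Fdft1 in fibroblast-like cells (-0.068 with equal weight), Scd1 with the transgene within cluster 4 of set 1 (-0.406) and Mvk between the sets within cluster 7 (-0.311). Of 213 smaller ratios, 93 turned under at least 1 alternative. Scaling without genes over 1% of UMIs moved 0 of 18 counts by over 1.5 times. Without integration the log2 ratio of Scd1 with the transgene was 0.483 in luminal-like cells of set 1. No paired analysis was possible because there was only 1 library for each tissue.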

Other observations

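In leukocyte-like cells, some of the other pathway genes differed in each direction between the sets. Of 22 that passed, 6 were higher and 6 lower in set 2, against 11.9% and 27.9% of 7660 features. The share lower was near that of all features. Apoe was at 2086 CPM in set 1 and 30084 CPM in set 2, Abca1, which exports cholesterol from cells, at 39.4 and 255 CPM, and Nr1h3, the sterol-sensing receptor LXR alpha, at 2.87 and 18.3 CPM. Lbr, a sterol reductase of the nuclear membrane, was lower in set 2, at 96.4 and 14.2 CPM. The 281 leukocyte-like cells of set 2 held more macrophage transcripts than the 1116 of set 1, as given above, and the part of that in these values was not tested.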
